A study of Mus musculus with 12 samples.

Results

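The circadian clock genes described here are Arntl, Npas2, Clock, Per1, Per2, Cry1, Nr1d1, Nr1d2, Dbp and Bhlhe41, chosen by name, whose rows were found by matching Ensembl identifiers to gene symbols. Of these 10, 9 were read from the table of 12086 genes, and Npas2 is not analysed here. The clock genes and the gene lists below were chosen with earlier results of these data known. Counts of their calls beside the share of all genes are therefore a description. The samples are livers of wild type male C57BL/6 mice, killed fasted at postnatal day 84 (12 weeks) and profiled by RNA sequencing of TruSeq libraries. Each group has a pair of letters, the first for what its mothers ate and the second for what the offspring ate (O, obesogenic; C, control). OO had obesogenic diet in dam and offspring (3 libraries), CO a control dam and obesogenic offspring (2 libraries), OC an obesogenic dam and control offspring (3 libraries), and CC control diet in both (3 libraries). The control diet was a chow of 7% simple carbohydrate and 3% lipid. The obesogenic diet held 10% simple carbohydrate and 20% lipid and came with sweetened condensed milk (55% simple carbohydrate, 8% lipid, 8% protein). Litters of all groups were set to 6 pups, and offspring went onto their own diet at weaning on day 21. Libraries carry their group name and a number that pairs nothing (such as OO.0, OO.1 and OO.2). The sources used here do not give the hour at which the mice were killed or the litter of each, so a changed level and a shifted rhythm cannot be told apart.

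The mammalian clock is a transcriptional loop. The proteins of Arntl (also called Bmal1) and Clock, or Npas2 in its place, bind as a pair to E-box elements and switch on the Per, Cry, Nr1d and Dbp genes. PER and CRY proteins then block the pair, and the NR1D proteins (REV-ERB) repress Arntl and Cry1 through ROR response elements. In liver the loop times many genes of glucose, lipid and bile acid metabolism, and Arntl transcripts peak at a phase of the day roughly opposite to that of Dbp.

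To show these elements at the genes themselves, promoter windows of 250 bases before to 50 bases after a transcription start were taken from RefSeq (GRCm38.p6), which held 12 windows for 8 of the 9 genes and none for Per2. Both strands were searched for the E-box CACGTG, the variant E-box CACGTT, the ROR element TAGGTCA or TGGGTCA, the D-box TTATGTAA or TTACATAA, and the CRE TGACGTCA. No letters of these motifs overlapped in the matches found. The E-box stood in 1 of 2 Per1 windows and in the windows of Cry1 and Bhlhe41. These are 3 of the 12 windows, against 7.15% of 32851 windows of the same length. The variant E-box stood in the windows of Cry1 and Nr1d1, 2 of the 12, against 4.69% of windows. A ROR element lay in 1 of 2 Arntl windows, from base 31 after the start, against 6.45% of windows. The D-box and the CRE, in 0.938% and 1.79% of windows, were matched in 0 of the 12. A match is a run of letters and not a shown binding site. The stretches with matches follow 5′ to 3′ on the strand of the gene, with the matched letters in capitals (AACGTG is the variant E-box read on the opposite strand).
Arntl, chr7:113207529-113207558, plus strand: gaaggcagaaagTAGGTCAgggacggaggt
Per1, chr11:69098756-69098815, plus strand: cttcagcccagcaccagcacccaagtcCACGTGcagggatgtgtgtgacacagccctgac
Cry1, chr10:85185082-85185141, minus strand: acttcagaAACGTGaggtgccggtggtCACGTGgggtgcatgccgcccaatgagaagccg
Nr1d1, chr11:98775378-98775432, minus strand: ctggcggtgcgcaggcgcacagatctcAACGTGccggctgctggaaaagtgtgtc
Bhlhe41, chr6:145865541-145865600, minus strand: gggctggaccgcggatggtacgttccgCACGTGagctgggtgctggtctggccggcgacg

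Values below are scaled read counts, close to CPM (reads of a gene per fixed number of reads), with a recovered depth of 3976160 to 27837604 reads per library. Differences are limma's on log2(value + 0.5), fitted over all 12086 genes and all 11 libraries, with Benjamini-Hochberg adjustment over all genes and a threshold of 0.05. Libraries differed in other transcripts too. Summed acute phase transcripts (14 genes measured of 15 listed) ran from 10040 to 12390 in OO, 13340 to 49800 in CO, 7787 to 32380 in OC and 8858 to 9404 in CC livers, with CO.1 and OC.1 highest. Summed pancreas acinar transcripts (11 of 13) ran from 15.9 to 131 in OO, 98.4 to 3954 in CO, 25.1 to 6212 in OC and 7.46 to 927 in CC livers, with OC.0 and CO.1 highest. Of these pancreas genes 2 were at 0 in an OO library and 4 in a CC library. Summed macrophage transcripts (9 of 9) ran from 480.0 to 494 in OO, 459 to 467 in CO, 330 to 504 in OC and 279.9 to 368 in CC livers. Summed hepatocyte transcripts (7 of 8) ran from 50060 to 55900 in OO, 56530 to 58190 in CO, 57820 to 64890 in OC and 63850 to 66200 in CC livers. Summed cholangiocyte transcripts (3 of 5) ran from 42.1 to 72.7 in OO, 49.7 to 59.2 in CO, 29.6 to 41.7 in OC and 25.7 to 41.5 in CC livers, without overlap between the offspring diets. Single genes without such overlap were 3.84% of all genes. Of the 3 cholangiocyte genes 2 were higher and 1 lower in OO and CO than in OC and CC livers. Of these 0 passed the threshold in limma, where 3.96% of all genes did. The part of these lists in the clock gene values was not tested. In whole liver RNA, fewer cells of a type and less RNA per cell cannot be told apart.

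In livers of offspring that ate the obesogenic diet, the activator Arntl and the repressor Cry1 were lower and the repressor Bhlhe41 was higher than in livers of offspring on the control diet. These 3 of 9 clock genes passed the threshold in the average offspring diet difference (OO and CO against OC and CC), where 3.96% of all genes did. At an unadjusted p under 0.05 it was 5 of 9, against 19.4% of all genes (2339), with Nr1d2 and Dbp as the other 2. Of the 9 differences, 5 were above 0 and 4 below, with a median of 0.16, while the median over all genes was -0.0008.

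**Figure D1:**
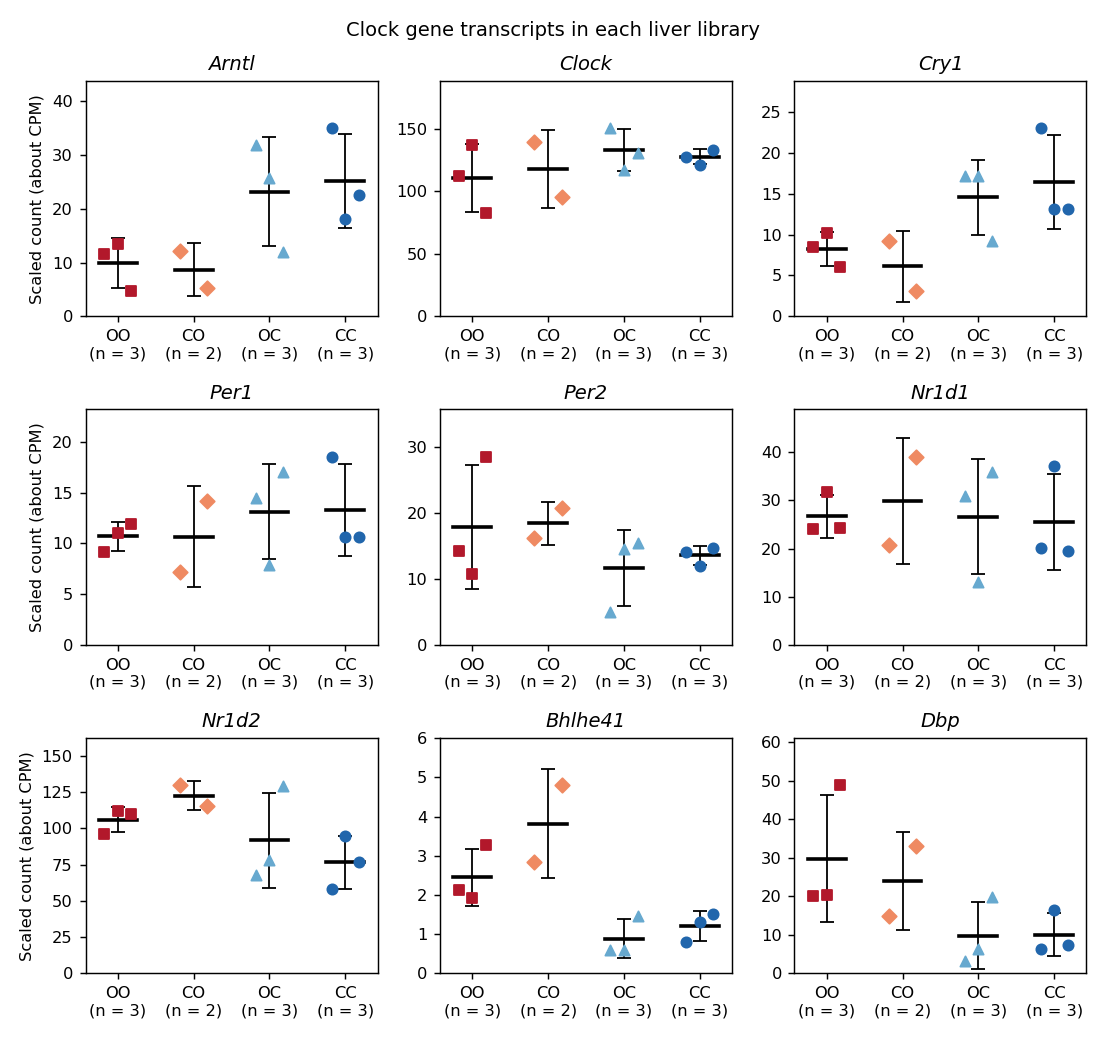
Scaled read count (about CPM, linear axis from 0) of the 9 clock genes in each library, by group; points are libraries, horizontal bars are group means and error bars are SDs. The 5 OO and CO libraries lie at 4.74 to 13.6 for Arntl, against 12.0 to 35.0 in the 6 OC and CC libraries, and Bhlhe41 is the gene without overlap between the offspring diets.

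Among the activators, Arntl is the non-redundant partner of the pair. It was at 11.6, 13.6 and 4.74 in OO livers and 12.2 and 5.24 in CO livers, against 31.8, 25.7 and 12.0 in OC livers and 35.0, 18.1 and 22.5 in CC livers. OC.2 alone of the control-fed libraries lay within the range of the obesogenic-fed libraries, so the offspring diets overlapped. The means were 9.46 ± 4.14 in obesogenic-fed offspring (SD, n = 5) and 24.2 ± 8.55 in control-fed offspring (SD, n = 6). The average offspring diet difference was -1.37 on the log2 scale (SE 0.34, 2.58-fold lower, limma adjusted p = 0.0449). By mean the groups ran CO, OO, OC and CC from low to high, and neither CO and OO nor OC and CC differed beyond their spread.

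Clock, the partner of Arntl, is known to cycle little. It was at 112, 137 and 82.7 in OO livers and 139.7 and 95.8 in CO livers, against 151, 118 and 131 in OC livers and 128, 122 and 134 in CC livers. The groups overlapped, with OO.2 and CO.1 lowest. The offspring diet difference of Clock was -0.21 (95% interval -0.52 to 0.09, limma adjusted p = 0.446).

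Among the repressors, Cry1 is the cryptochrome of the late phase of the loop. It was at 8.45, 10.2 and 6.05 in OO livers and 9.17 and 3.06 in CO livers, against 17.2, 17.2 and 9.25 in OC livers and 23.0, 13.1 and 13.1 in CC livers. OC.2 was again the control-fed library inside the obesogenic-fed range, and CO.1 was lowest. The means were 7.39 ± 2.87 in obesogenic-fed offspring (SD, n = 5) and 15.5 ± 4.74 in control-fed offspring (SD, n = 6), a difference of -1.12 (SE 0.28, 2.17-fold lower, limma adjusted p = 0.0488).

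Bhlhe41 (Dec2) encodes a helix-loop-helix repressor that competes for E-boxes. It was at 2.14, 1.94 and 3.27 in OO livers and 2.83 and 4.80 in CO livers, against 0.587, 0.608 and 1.47 in OC livers and 0.793, 1.31 and 1.52 in CC livers. All 5 libraries of obesogenic-fed offspring lay above all 6 of control-fed offspring, as values did without overlap, in either direction, for 3.84% of all genes. The difference was 1.22 (SE 0.25, 2.33-fold higher on the log2(value + 0.5) scale, limma adjusted p = 0.0218). The depth behind this gene is low, from 4 to 64 reads per library with a median of 10. A minimum value of 5 removes it from the test, and DESeq2 gave it no adjusted p in the offspring diet average. The pseudocount moved its difference between 0.73 with 2 and 1.51 with 0.1.

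The period genes gave no call. Per1, which also answers to glucocorticoids, was at 9.12, 11.1 and 11.9 in OO livers and 7.17 and 14.2 in CO livers, against 14.5, 7.91 and 17.0 in OC livers and 18.6, 10.7 and 10.6 in CC livers. Per2 was at 14.3, 10.8 and 28.6 in OO livers and 16.2 and 20.7 in CO livers, against 5.05, 14.6 and 15.4 in OC livers and 14.1, 12.0 and 14.7 in CC livers. Both overlapped between the offspring diets, and the spread of Per2 came mainly from a high OO.2 and a low OC.0. The offspring diet differences were -0.28 for Per1 (95% interval -0.80 to 0.24, limma adjusted p = 0.577) and 0.52 for Per2 (-0.13 to 1.18, adjusted p = 0.378).

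The REV-ERB genes, which repress Arntl, gave no call. Nr1d2 (REV-ERB beta) was at 95.9, 112 and 110.0 in OO livers and 130 and 115 in CO livers, against 68.0, 78.2 and 129 in OC livers and 57.9, 94.99 and 76.6 in CC livers. Only OC.2 among the control-fed libraries exceeded the lowest obesogenic-fed one, and the difference of 0.48 (SE 0.17, 95% interval 0.11 to 0.85) missed the threshold at a limma adjusted p of 0.143. Nr1d1 (REV-ERB alpha) was at 24.0, 31.8 and 24.2 in OO livers and 20.7 and 39.1 in CO livers, against 30.9, 13.1 and 35.8 in OC livers and 20.1, 37.0 and 19.5 in CC livers. The Nr1d1 groups overlapped, with a difference of 0.16 (95% interval -0.44 to 0.77, limma adjusted p = 0.805).

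Dbp is the classical output gene of the loop, a PAR bZIP factor that drives D-box genes, and it varied most of the 9 across libraries (SD 1.11 on the log2 scale, with a highest value 14.9 times the lowest). It was at 20.1, 20.5 and 48.9 in OO livers and 15 and 33.0 in CO livers, against 3.29, 6.39 and 19.8 in OC livers and 6.34, 16.5 and 7.33 in CC livers. OO.2 and CO.1 were highest, and OC.2 and CC.1 reached into the obesogenic-fed range. The means were 27.5 ± 13.7 in obesogenic-fed offspring (SD, n = 5) and 9.94 ± 6.58 in control-fed offspring (SD, n = 6). The difference, 1.51 (SE 0.43, 2.84-fold higher), was the largest in size of the 9 and missed the threshold at a limma adjusted p of 0.0779.

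**Figure D2:**
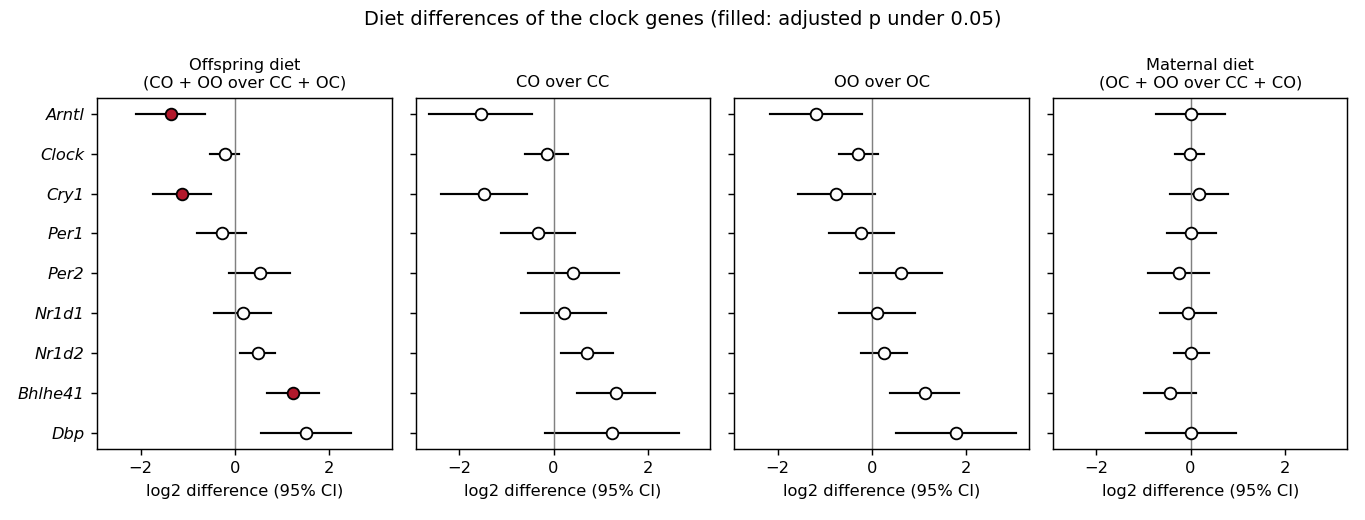
Log2 differences (horizontal axis, value + 0.5) with 95% intervals for the 9 clock genes in 4 comparisons; filled points have a limma adjusted p under 0.05. Arntl, Cry1 and Bhlhe41 are filled in the offspring diet panel at -1.37, -1.12 and 1.22, and no point is filled in the CO over CC, OO over OC and maternal diet panels.

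Within each maternal diet the 9 differences had the signs of the average, and 0 of 9 passed the threshold in limma. In CO against CC livers 4 of 9 had an unadjusted p under 0.05 in limma, against 16.8% of all genes. There limma called 1.79% of all genes, and edgeR called 0 of the 9 and 1.29% of all genes. DESeq2 called 2 (Arntl and Cry1) and 3.77% of all genes. The CO against CC differences were -1.54 for Arntl (SE 0.50, adjusted p = 0.148), -1.48 for Cry1 (SE 0.42, adjusted p = 0.102), 1.33 for Bhlhe41 (SE 0.38, adjusted p = 0.102), 0.70 for Nr1d2 (SE 0.25, adjusted p = 0.190) and 1.23 for Dbp (SE 0.65, adjusted p = 0.366). Arntl and Cry1 in both CO libraries lay below all 3 CC libraries, and Per2, Nr1d2 and Bhlhe41 lay above. With 2 libraries against 3, values did not overlap for 35% of all genes.

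In OO against OC livers, which share the obesogenic dam, 3 of 9 clock genes had an unadjusted p under 0.05 in limma, against 8.01% of all genes. Limma and edgeR called 0 of 9 and DESeq2 called 0 of the 8 it gave an adjusted p. Of all genes, limma called 0.165%, edgeR 0.19% and DESeq2 0.877%. The OO against OC differences were -1.19 for Arntl (SE 0.45, adjusted p = 0.528), -0.76 for Cry1 (SE 0.37, adjusted p = 0.660), 1.12 for Bhlhe41 (SE 0.34, adjusted p = 0.357) and 1.78 for Dbp (SE 0.58, adjusted p = 0.410). Dbp and Bhlhe41 in all 3 OO libraries lay above all 3 OC libraries, and values did not overlap for 12.7% of all genes. The difference between these offspring diet effects was itself tested as an interaction. It gave 0 calls among the 9 clock genes in limma and edgeR, and DESeq2 called 0 of the 2 it gave an adjusted p. Limma and edgeR each called 0.0331% of all genes there, and DESeq2 called 0.0496%. At an unadjusted p under 0.05 it was 0 of 9 in limma, against 4.56% of all genes. The interaction of Cry1, the largest, was 0.72 (95% interval -0.51 to 1.95, limma adjusted p = 0.936).

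The diet of the dam gave no call among the clock genes. The average maternal diet difference (OC and OO against CC and CO) called 0 of 9 in limma and edgeR. In DESeq2 it called 0 of the 8 with an adjusted p. Of all genes, limma and edgeR each called 0.0331% and DESeq2 0.0662%. At an unadjusted p under 0.05 it was 0 of 9 in limma, against 6.13% of all genes. The largest was that of Bhlhe41 at -0.44 (95% interval -0.99 to 0.11, limma adjusted p = 0.816), while Arntl had an interval of -0.73 to 0.73 and Dbp of -0.94 to 0.96. OC against CC gave 0 calls in limma, edgeR and DESeq2, with limma calls for 0% of all genes, and 0 of 9 at an unadjusted p under 0.05 in limma, against 5.26% of all genes. OO against CO gave 0 calls in limma and edgeR, and in DESeq2 among the 8 with an adjusted p. Limma and edgeR each called 0.0414% of all genes there, and DESeq2 called 0.132%. At an unadjusted p under 0.05 limma gave 0 of 9, against 5.92% of all genes.

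The 3 calls in the offspring diet average depended on which libraries entered. Without CC.0, CO.1 or OC.0 the count was 0. It was 1 (Bhlhe41) without CC.2, OC.1, OO.0 or OO.2, and 2 (Arntl and Bhlhe41) without CC.1 or OO.1. It stayed at 3 without CO.0 and reached 5 without OC.2, where Dbp (1.84, limma adjusted p = 0.0256) and Nr1d2 (0.62, adjusted p = 0.0353) also passed. The share of all genes called moved too, from 3.96% with all 11 libraries. Leaving out CC.0 gave 2.09% and leaving out OC.0 gave 2.23%, both with 0 clock genes called. Where only Bhlhe41 was called, the share ran from 2.12% (CC.2 left out) to 3.95% (OC.1 left out). With OC.2 left out and 5 clock genes called, the share was 2.72%. Over the fits that each left out 1 library, the difference lay between -1.65 and -1.08 for Arntl and -1.48 and -0.76 for Cry1. It lay between 1.05 and 1.39 for Bhlhe41 and 1.23 and 1.84 for Dbp. Without OC.0 and CO.1, the libraries with the most pancreas transcripts, it was -0.94 for Arntl, -0.69 for Cry1, 0.98 for Bhlhe41 and 0.95 for Dbp, with 0 of 9 called and 1.11% of all genes. Without OC.1 and CO.1, those with the most acute phase transcripts, it was -1.02 for Arntl, -0.69 for Cry1, 0.99 for Bhlhe41 and 1.17 for Dbp, with 0 of 9 called and 2.07% of all genes. Further than these fits, the part of either in the clock gene values was not tested.

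Across the 11 libraries the levels of 6 of the 8 other clock genes were correlated with that of Arntl by Pearson r. Clock, among these 6, missed the threshold by Spearman rho (permutation adjusted p = 0.110). Cry1 ran with Arntl (Pearson r = 0.948, Spearman rho = 0.973, permutation tests, adjusted p = 8e-05 and 0.00016). Dbp ran against it (r = -0.942, rho = -0.918, permutation adjusted p = 8e-05 and 0.001), and so did Bhlhe41 (r = -0.921, rho = -0.873, permutation adjusted p = 0.000133 and 0.00312). Without the 2 libraries farthest from the Arntl median (OO.2 and CC.0), r was 0.969 for Cry1, -0.919 for Dbp and -0.931 for Bhlhe41. All points share the scaling of their library, and 8 relations were tested two-sided over 100000 pairings with adjustment over the 8. The pairings were drawn over all libraries regardless of group. The share of all genes correlated with Arntl at this level was not computed. Outside the clock lists, Sf3b6 had r = 0.958 and Cldn2 r = -0.957 with Arntl.

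Weaker relations to Arntl were found for Nr1d2 (r = -0.791, rho = -0.764, permutation adjusted p = 0.00744 and 0.0171), Per2 (r = -0.715, rho = -0.691, permutation adjusted p = 0.0131 and 0.0356) and Clock (r = 0.752, rho = 0.555, permutation adjusted p = 0.0121 and 0.110). Without OO.2 and CC.0 they were -0.791 for Nr1d2, -0.701 for Per2 and 0.663 for Clock. Nr1d1 (r = -0.393, rho = -0.464, permutation adjusted p = 0.263 and 0.176) and Per1 (r = 0.080, rho = 0.118, permutation adjusted p = 0.813 and 0.733) missed the threshold.

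The relations were recomputed apart from diet. Deviations from the group means gave, as a description, r = 0.913 with Arntl for Cry1, -0.930 for Dbp, -0.950 for Bhlhe41, -0.617 for Nr1d2, -0.702 for Per2 and 0.746 for Clock. Within the 6 control-fed libraries alone, r was 0.955 for Cry1 (rho 0.943, exact permutation p = 0.00278 and 0.0167), -0.985 for Nr1d2 (rho -0.943, exact p = 0.00278 and 0.0167) and -0.893 for Dbp (rho -0.943, exact p = 0.0236 and 0.0167), all unadjusted. For Bhlhe41 it was -0.757 there (rho -0.657, exact permutation p = 0.0903 and 0.175), for Per2 -0.426 (rho -0.543, exact p = 0.407 and 0.297) and for Clock 0.236 (rho 0.086, exact p = 0.651 and 0.919). OC.2 is the control-fed library with the lowest Arntl and Cry1 and the highest Dbp and Nr1d2, and OO.2 and CO.1 have the lowest Arntl and the highest Dbp of all 11.

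**Figure D3:**
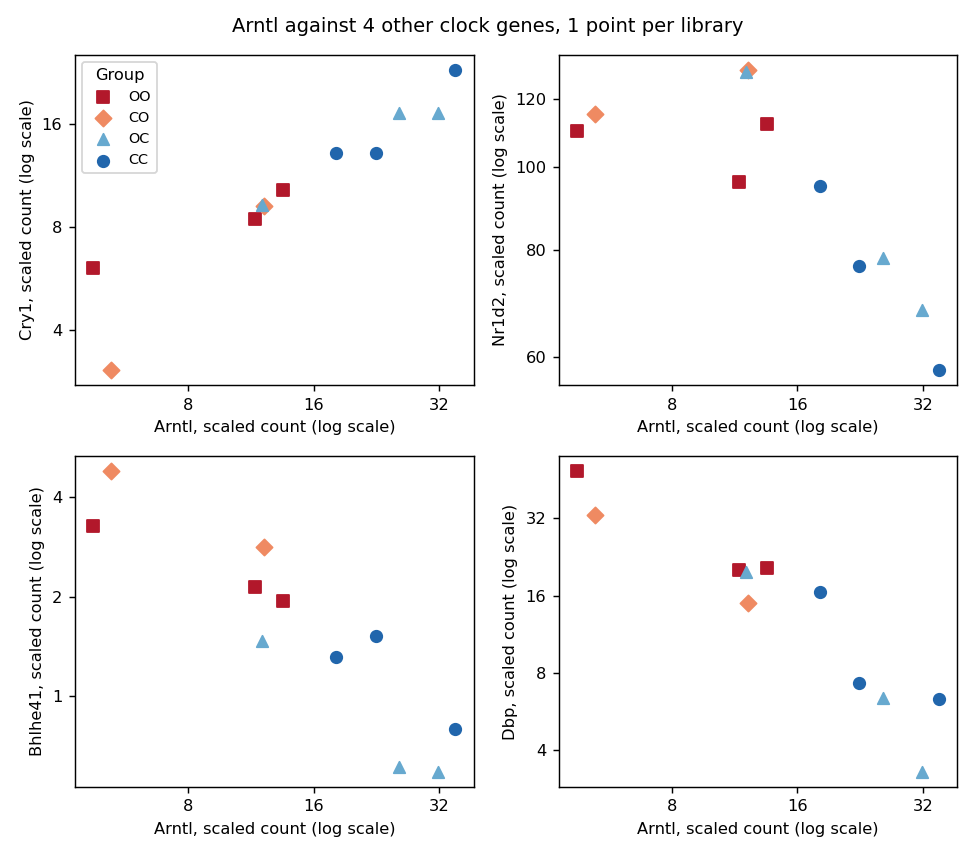
Scaled read count of Arntl (horizontal, log scale) against Cry1, Nr1d2, Bhlhe41 and Dbp (vertical, log scale), 1 point per library. Cry1 climbs with Arntl (r = 0.948) and Bhlhe41 and Dbp descend (r = -0.921 and -0.942), with libraries of control-fed offspring (OC and CC) toward high Arntl and OC.2 among the obesogenic-fed ones.

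Each clock gene also varied more across libraries than most genes with a mean within 0.5 on the log2 scale of its own. The SD of Arntl, 0.91 on the log2 scale, exceeded that of 98.1% of 2320 such genes, whose median was 0.22. For Dbp the share was 99.0%, for Cry1 97.2% and for Clock, the lowest, 73.3%.

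The other core clock genes did not show a common direction. Of 14 listed and measured, 0 passed the threshold in the offspring diet average in limma, where 3.96% of all genes did. At an unadjusted p under 0.05 it was 2 of 14, against 19.4% of all genes. The median difference was -0.02. Timeless, a homologue of a fly clock gene with a known part in DNA replication, had a difference of 0.50 (limma adjusted p = 0.0984), and Nfil3, the repressor that competes with Dbp for D-boxes, had -0.55 (adjusted p = 0.232). Rora, an activator of Arntl, had a difference of -0.17 (limma adjusted p = 0.554). The heat map shows OO.2 above its group also in Per3 (36.9, against 10.1 and 12.2 in OO.0 and OO.1) and Tef (210, against 124 and 118), a PAR bZIP relative of Dbp.

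**Figure D4:**
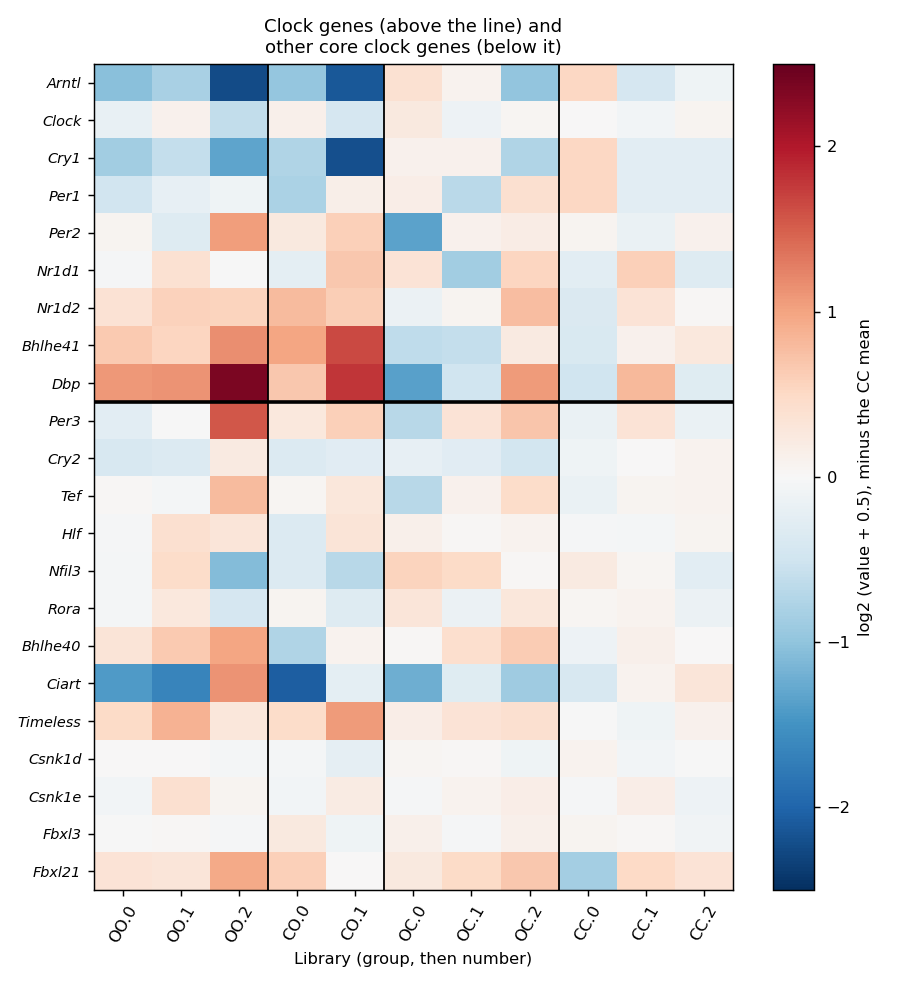
Log2(value + 0.5) minus the CC mean, per library (columns, grouped OO, CO, OC, CC) for the 9 clock genes above the line and 13 other core clock genes below it; red is above and blue below the CC mean. Blue in Arntl and Cry1 and red in Bhlhe41 and Dbp fill the 5 OO and CO columns and OC.2 (faintest there in Bhlhe41). In the lower block 0 of the 13 genes passed the threshold in the offspring diet average, where 3.96% of all genes did.

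Among 15 rhythmic liver outputs 0 passed the threshold, against 3.96% of all genes, with a median of -0.24. At an unadjusted p under 0.05 it was 2 of 15, against 19.4% of all genes. Alas1, the rate-limiting enzyme of heme synthesis, had 0.84 (limma adjusted p = 0.0653). Cyp7a1, the rate-limiting enzyme of bile acid synthesis, had -1.81 (adjusted p = 0.133), Lpin1, a phosphatidate phosphatase, -0.50 (adjusted p = 0.320), and Nampt, of NAD salvage, -0.24 (adjusted p = 0.271).

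Glucocorticoid and temperature signals are known to reset the liver clock, and genes that answer to them were measured beside it. Of 12 glucocorticoid and fasting genes 3 fell in the offspring diet average, 0 rose and all 12 differences were below 0, with a median of -0.54, where 208 of all 12086 genes fell and 271 rose. Tat, the glucocorticoid-induced tyrosine aminotransferase and also in the hepatocyte list, was at 406 to 1058 in OO and 525 to 673 in CO livers, against 954 to 1363 in OC and 1316 to 2013 in CC livers (-1.23, SE 0.23, limma adjusted p = 0.0149). G6pc, the glucose-6-phosphatase subunit that releases glucose, fell by 1.28 (SE 0.27, limma adjusted p = 0.0248), and Fkbp5, a co-chaperone of the glucocorticoid receptor, fell by 0.96 (SE 0.22, adjusted p = 0.0318). Sgk1, a kinase induced by the same receptor, had -0.57 (adjusted p = 0.0508). Of 7 temperature and heat shock genes 2 fell and 0 rose, with a median of 0.39, beside the same 208 and 271 of all genes.

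The 2 that fell were the cold-inducible RNA-binding proteins. Cirbp was at 11.4, 7.74 and 13.9 in OO and 4.50 and 9.82 in CO livers, against 25.9, 15.1 and 11.7 in OC and 35.2, 17.8 and 24.3 in CC livers (-1.21, SE 0.27, limma adjusted p = 0.0289). OC.2 was the control-fed library inside the obesogenic-fed range for Cirbp, as it was for Arntl and Cry1. Rbm3 was at 14.7 to 18.7 in OO and 18.8 to 23.8 in CO livers, against 22.2 to 26.5 in OC and 25.2 to 34.6 in CC livers (-0.48, SE 0.12, limma adjusted p = 0.0447). The chaperones Hsph1 (0.84, limma adjusted p = 0.106) and Hsp90aa1 (0.62, adjusted p = 0.176) missed the threshold in the average. Hsph1 passed it in CO against CC livers (1.75, limma adjusted p = 0.0492), where Cirbp also fell (-1.82, adjusted p = 0.0441). Hsph1 was at 216 and 151 in CO, against 34.7, 70.5 and 61.8 in CC livers. Both calls ended with a robust variance and with only the compared groups fitted. That of Hsph1 also ended with a pseudocount of 0.1 and with a minimum value of 5. Leaving out 1 library ended the CO against CC call of Hsph1 in 8 of 11 fits (limma adjusted p up to 0.172) and of Cirbp in 7 (up to 0.183), and edgeR called neither. Leaving out 1 library ended the offspring diet call of G6pc in 5 of 11 fits (limma adjusted p up to 0.106), of Fkbp5 in 8 (up to 0.0860), of Cirbp in 6 (up to 0.0837) and of Rbm3 in 9 (up to 0.169), while that of Tat held in all 11 (up to 0.0490). Tat, G6pc and Rbm3 no longer passed in either fit that left out CO.1 together with OC.0 or OC.1 (limma adjusted p up to 0.0868 for Tat, 0.198 for G6pc and 0.221 for Rbm3), nor did Fkbp5 without OC.1 and CO.1 (0.0846), while Cirbp passed in both. The part of these signals in the clock gene values was not tested.

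The genes outside the clock lists most like Arntl over the 11 libraries, of 9293 compared by Pearson r, were Sf3b6 (r = 0.958), Man1a2 (0.944), Slc45a3 (0.941), Ankib1 (0.912) and Desi2 (0.909). Those most opposed were Cldn2 (-0.957), Foxo3 (-0.954), Anxa2 (-0.943), Slc22a23 (-0.935) and Inhbe (-0.935). Most like Dbp were Adi1 (0.929), Ccnd1 (0.923), Cldn2 (0.923), Prr13 (0.920) and Hsd17b12 (0.916), and most opposed to it were Pcsk7 (-0.922), Fem1c (-0.912), Iars (-0.903), Man1a2 (-0.899) and Xpa (-0.877). Cldn2, a claudin of tight junctions, is thus on both lists with opposite signs, and so is Man1a2, a mannosidase of glycoprotein trimming. Arntl and Dbp themselves had r = -0.942 over the same libraries. The opposite signs follow from that relation and say nothing further of these genes. Cldn2 averaged 108 in obesogenic-fed and 58.8 in control-fed offspring, and Man1a2 66.99 in obesogenic-fed and 87.6 in control-fed offspring. These are the extremes of many genes and are given as a description, without a test.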

How the data were processed

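The labels list 12 liver samples, and the table the authors deposited holds 11 columns whose names give the group but not the sample. The authors made the deposited signal values by scaling the reads of each gene with a single factor for each library, a step inferred from the table, and column sums ran from 929699 to 1099404. Within a library 95.4% to 97.2% of values were whole multiples of 1 read (tolerance 0.01), which gave the recovered depths. In 6 libraries some of the lowest values were fractions of a read, and recovered reads were rounded. Alignment used Bowtie 1.2.3 and mm8, per the submitters' processing notes. The sources used here do not name the read counter, annotation, strand setting or scaling method, and no coordinates on mm8 are printed.

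Symbols matched 11965 of 12086 identifiers. Genes needed a value of 1 in 3 libraries. The limma 3.58.1 fit (R 4.3.3, intensity trend, 1 mean per group, 7 residual and 4.66 prior degrees of freedom) served 7 comparisons; edgeR 4.0.16 and DESeq2 1.42.0 on recovered reads, pseudocounts of 0.1 and 2, a minimum of 5, no filter, 2 scalings, a robust variance, only the compared groups, a threshold of 0.10 and left-out libraries were alternatives. The scripts were tested on simulated data. Whether libraries are separate litters is unknown, so p-values measure the spread between these libraries.

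The clock genes and lists were chosen with earlier results of these data known. All measured clock genes are named, with the list genes past the threshold or of the 4 smallest p, and the 5 genes with the highest and the lowest r to Arntl and Dbp among those with a mean of at least 5 and a symbol other than Gm or Rik names. Per3, Tef and, in CO against CC, Hsph1 and Cirbp were named after their values were seen. A gene that this rule takes is not reported here. Of the neutrophil, cholangiocyte and skeletal muscle marker lists 2 of 6, 3 of 5 and 5 of 6 genes were measured. Their members called higher in the offspring diet average numbered 1, 0 and 0. Also called higher were 3 of 14 acute phase, 1 of 9 macrophage and 0 of 11 pancreas genes, and 2 of 7 hepatocyte genes were called lower. Of all 12086 genes, 271 were called higher and 208 lower.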

Additional observations from a re-analysis of the deposited data

How the results depend on the processing

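In the offspring diet average 3 clock genes passed the threshold. The count was 1 with a robust variance, 0 without OC.0 and CO.1, 0 without OC.1 and CO.1, and 0 to 5 when each library was left out. The robust variance called 509 of all genes (4.21%), and leaving out 1 CC, OC or OO library called 2.09% to 4%. Limma, edgeR and DESeq2 called 479, 504 and 770 of all genes in that average. DESeq2 gave no adjusted p to Bhlhe41 there. The count of clock genes was 2 with edgeR and 2 with DESeq2, of the 8 it gave an adjusted p. In CO against CC it was 0 in limma, 2 with DESeq2 and 0 to 1 over the left-out libraries (Cry1 without CO.0, adjusted p = 0.0329). In the other 5 comparisons it was 0 under each alternative run. Of 1467 recomputed clock gene differences 0 reversed a call, 28 lost it and 6 gained it, and 120 that passed in neither fit changed sign. Most of the 1467 had no call to lose, and all 28 losses fell on the 3 genes called in the offspring diet average. Arntl kept its call in 9 of 12 alternative settings and in 4 of 11 fits with 1 library left out. For Cry1 these were 8 of 12 and 2 of 11, and for Bhlhe41 8 of 10 and 8 of 11. Among the 6 gains, that of Dbp under the looser threshold came from the threshold alone. Leaving out a CO library leaves 1, assumed to vary like the others. The 2 or 3 libraries per group and the low reads of Bhlhe41 limit precision. No paired analysis was possible because the labels give no replicate number and the column names match no labelled sample.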
